A study of Homo sapiens with 4 samples.

Results

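Aminoacyl-tRNA synthetases, the enzymes that charge each transfer RNA with its amino acid, were examined across 4 stages of the H1 line, from undifferentiated cells to blood-forming cells grown from them. The genes were taken by symbol, as every row named by the amino acid letter followed by ARS or ARS2, together with FARSA, FARSB, EPRS and TARSL2. This gave 38 genes of 17630 in the tables, 21 for cytosolic and 17 for mitochondrial enzymes, a mitochondrial enzyme being one whose symbol ends in 2 (TARSL2, a cytosolic threonyl-tRNA synthetase-like gene, was placed with the cytosolic members). The rule reads symbols alone, though it was set with earlier results of these data known.

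H1 is an established embryonic stem cell line, and all 4 groups derive from it. The undifferentiated group (hESC) is H1 before induction. The APLNR+ group (MES) was isolated by cell sorting on day 2, after 2 days with activin A at 40 ng/ml and BMP4 at 50 ng/ml. The CD31+CD34+ group (HEP) was isolated on day 4, after 2 further days with VEGF at 40 ng/ml and bFGF at 50 ng/ml. The CD31+CD43+ group (HPC) was isolated on day 7, after 3 more days with VEGF, bFGF and SB-431542, which blocks the TGF-beta family receptors of the activin type. The labels name no sort for hESC, and in comparisons with it the effect of sorting cannot be told apart from that of differentiation. Each group is 1 library of 1 cell line: values have no replicate error, groups could not be tested against each other, and every difference below is a description of these libraries by its size. The depth behind the values is unknown.

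In the cytosol, each of the amino acids used in translation has its own charging activity, and a separate set of nuclear-encoded enzymes does the same work inside mitochondria for the proteins encoded there. The enzymes for glycine and lysine, GARS and KARS, serve both compartments from a single gene, and EPRS joins the glutamyl and prolyl activities in a single chain. Phenylalanine is charged in the cytosol by a tetramer of FARSA and FARSB chains and in mitochondria by the single chain of FARS2. Several cytosolic enzymes sit in a multisynthetase complex held by the scaffold proteins AIMP1, AIMP2 and EEF1E1. The genes of many cytosolic synthetases are also known targets of ATF4, the transcription factor of the amino acid response, which is engaged when uncharged transfer RNA accumulates.

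The labels were checked against marker genes. POU5F1, a pluripotency factor, stood at 1582 in hESC and 15.4 in HPC, the sort antigen APLNR at 0.57 in hESC and 344 in MES, and CD34 at 1.35 in MES and 43.6 in HEP. SPN, which encodes CD43, stood at 0.97 in HEP and 24.4 in HPC, with the erythroid globin HBE1 at 0.77 and 442, whereas PECAM1, which encodes CD31, was at only 1.83 in HEP and 7.49 in HPC and the leukocyte gene PTPRC at 0.04 or less in every library. Of the endodermal markers, SOX17 stood at 25.1 in MES and 26.9 in HEP while FOXA2 and HNF4A were at 0.69 or less everywhere, the neural markers PAX6 and SOX1 were at 0.03 or less, and of the muscle and mesenchymal markers TAGLN was highest in MES (561), COL1A1 in HEP (51.3) and ACTA2 in HPC (19.2). Whether such other cells were present, and their part in the values below, was not tested. In these bulk samples fewer cells of a type and less RNA per cell cannot be told apart. The libraries also differed along the GC content of the transcripts. For the 6364 genes whose mean was at least 5, the Spearman rho of the log2 difference from MES to HEP with GC content was 0.71, a description across genes of the same libraries whose cause was not tested. The calls and medians of members are therefore given as deposited and with this trend removed from each library; levels and ratios are as deposited unless stated.

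All 38 members stood at 5 or more in some library, and 31 of them in every library. TARSL2 was the only member below 1 anywhere (0.57 in HEP). The measure is not stated to be FPKM or TPM; RSEM, which the submitters name, gives values per transcript length, and levels are set side by side between genes on that reading. The cytosolic members summed to 1535 (hESC), 1168 (MES), 670 (HEP) and 773 (HPC), and the mitochondrial members to 268, 199, 144 and 184. Their ratio was 5.72 (hESC), 5.87 (MES), 4.64 (HEP) and 4.19 (HPC). As a share of all values in the library, the 38 genes made up 0.42% (hESC), 0.38% (MES), 0.27% (HEP) and 0.27% (HPC). After removal of the GC trend these shares were 0.40%, 0.37%, 0.28% and 0.28%.

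hESC was the library of highest value for 27 of the 38 members, and HEP that of lowest value for 26. Without the GC trend these counts were 20 and 17, and HPC was highest for 13 members, against 5 as deposited. As deposited, the order of the cytosolic members turned over between stages. In hESC the highest were TARS (208), KARS (160), IARS (118) and MARS (109). In HEP they were FARSA (79.3), SARS (78.9), QARS (69.4) and MARS (68.1), and in HPC FARSA (103), QARS (98.8), KARS (86.8) and SARS (81.2). Without the GC trend the highest in hESC were TARS (129), KARS (112) and MARS (103). In HEP they were then SARS (86.3), KARS (83.1) and IARS (82.4), and in HPC KARS (107), FARSA (102) and QARS (99.5). As deposited, among mitochondrial members NARS2 (28.4), YARS2 (28.3) and IARS2 (27.6) led in hESC, SARS2 (14.8), EARS2 (13.1) and FARS2 (12.8) in HEP, and CARS2 (22.4) in HPC. Without the GC trend EARS2 (24.5) led in hESC, IARS2 (18.7) in HEP and CARS2 (26.7) in HPC.

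**Figure D1:**
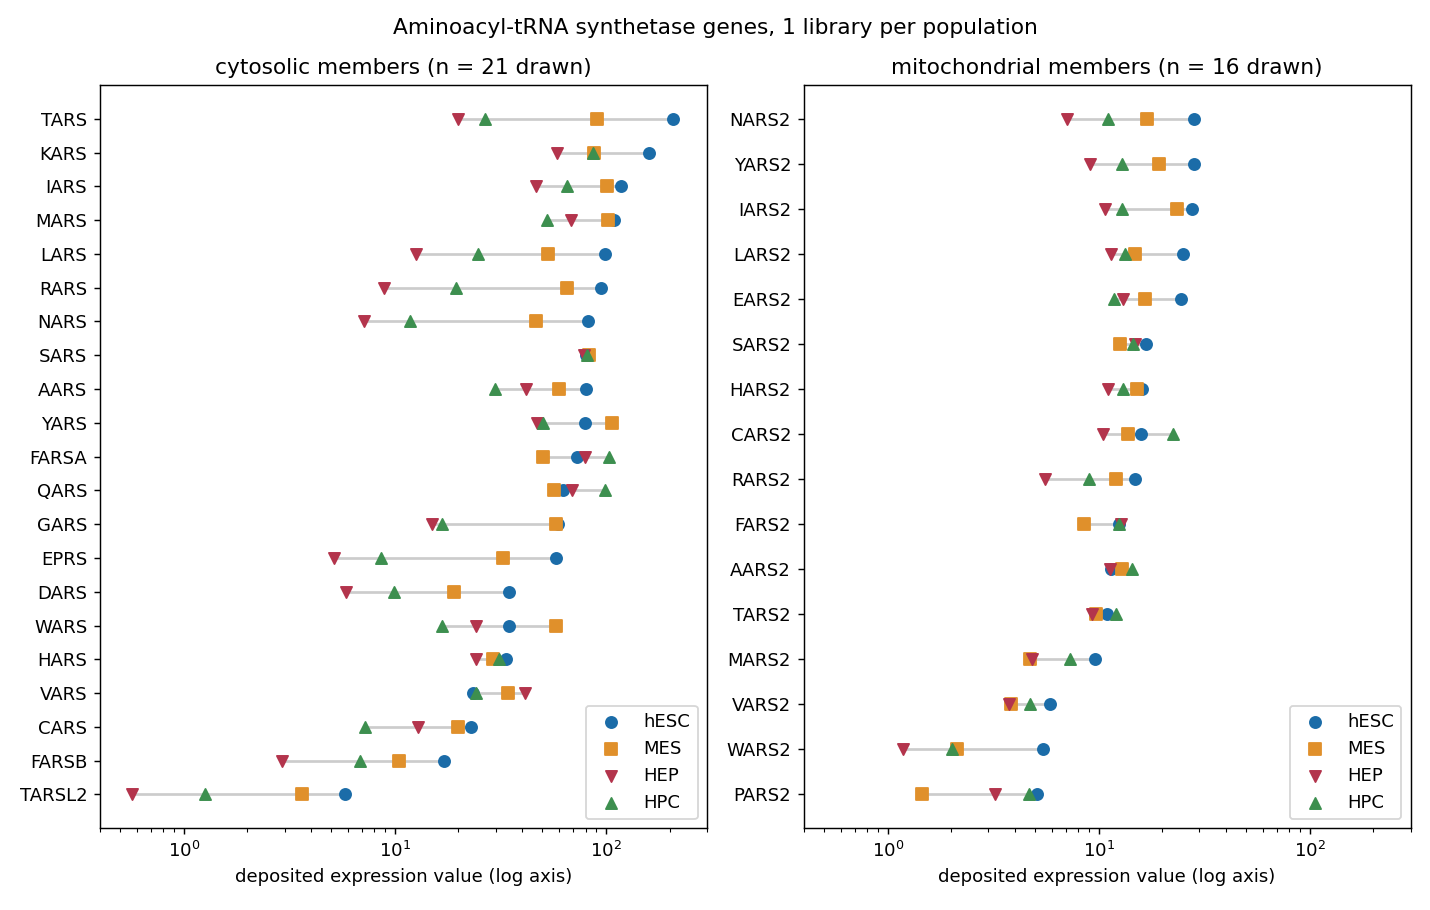
Deposited expression value (log axis) of the 21 cytosolic (left) and 16 of the 17 mitochondrial (right) members in the 4 libraries, 1 point per library, with a grey line from the lowest to the highest value. TARS spans 19.99 in HEP to 208 in hESC, whereas the 4 points of SARS lie between 78.9 and 82.7.

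The first comparison sets MES against hESC, the step under activin A and BMP4. Differences are log2 differences of (value + 1), which understate the change of low genes, and a gene counts as higher or lower where the difference reached 1 in either direction and the larger value was 5 or more. Of the 38 members 3 were lower in MES and 0 higher, while 7.99% of the 8174 genes at 5 or more in any library were lower and 8.18% higher. TARS, the threonine enzyme, stood at 208 in hESC and 90.3 in MES (log2 difference -1.19). PARS2, the mitochondrial proline enzyme, stood at 5.11 and 1.46 (-1.31), and WARS2, the mitochondrial tryptophan enzyme, at 5.47 and 2.13 (-1.05). The latter pair are near the minimum for a call. With the GC trend removed 0 members were lower and 0 higher, against 4.64% and 8.61% of 8139 genes. The median difference was -0.42 over cytosolic and -0.50 over mitochondrial members, and -0.17 over the 8174 genes. With the GC trend removed it was -0.32 over cytosolic and -0.42 over mitochondrial members.

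A few cytosolic members stood higher in MES than in hESC without passing the rule. WARS, the tryptophan enzyme, was at 34.6 in hESC and 58.1 in MES (0.73, or 0.95 with the GC trend removed). VARS, the valine enzyme, was at 23.4 and 34.5 (0.54). YARS, the tyrosine enzyme, was at 79.9 and 107 (0.42). For all 3, MES was thus above hESC. Without regard to size, 17 of the 21 cytosolic members had a difference below 0, as had 4910 of the 8174 genes.

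The comparison of HEP with MES covers the step under VEGF and bFGF and held the most calls of the 3 successive steps. Of the 38 members 15 were lower in HEP and 0 higher, while 29.9% of the 8174 genes were lower and 7.14% higher. The lower members were 11 of 21 cytosolic and 4 of 17 mitochondrial genes, a difference between the compartments for which no test was possible. The median difference was -1.17 over cytosolic members, -0.35 over mitochondrial members and -0.42 over the 8174 genes. With the GC trend removed, 6 members were lower, all cytosolic, and 0 higher, against 10.5% and 7.56% of genes. The medians were then -0.54 over cytosolic members, -0.03 over mitochondrial members and -0.09 over 8139 genes. Scaling each library by its median ratio over genes, which puts the libraries on a common median with no regard to GC content, gave 8 members lower and 2 higher (FARSA and FARS2), with 1445 genes lower and 1423 higher, against 2448 and 584 as deposited. The cytosolic median was then -0.61, and the mitochondrial median changed sign to 0.18. EPRS, GARS, NARS, RARS and TARS were lower by the rule under all of these scalings.

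RARS, the arginine enzyme of the multisynthetase complex, stood at 94.6 (hESC), 65.2 (MES), 8.83 (HEP) and 19.5 (HPC). It had the largest difference from MES to HEP of any member (-2.75, and -2.30 with the GC trend removed). NARS, the asparagine enzyme, stood at 82.4, 46.4, 7.16 and 11.7 in the same order. EPRS stood at 57.8, 32.6, 5.13 and 8.63. The 3 genes had the same order of libraries, with HEP lowest and HPC above it but below MES. The differences from MES to HEP were -2.54 for NARS and -2.45 for EPRS, and -1.62 and -1.11 with the GC trend removed.

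GARS, which charges glycine in both compartments, stood at 59.6 (hESC), 57.8 (MES), 14.9 (HEP) and 16.7 (HPC). The pair of early libraries lay close together and the pair of late libraries lay far below them. The median GC content of its listed transcripts is high (60.4%), where the trend ran upwards from MES to HEP. The difference was -1.89 as deposited and -2.19 with the trend removed. TARS stood at 208, 90.3, 19.99 and 26.6 (MES to HEP -2.12, or -1.03 with the trend removed). YARS stood at 79.9, 107, 47.0 and 50.1 (-1.17, or -1.05).

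The other 9 members below the rule's bound from MES to HEP no longer passed it with the GC trend removed. LARS, the leucine enzyme, stood at 98.5, 52.9, 12.6 and 24.8 across hESC, MES, HEP and HPC, and its difference from MES to HEP went from -1.99 to -0.52. IARS, the isoleucine enzyme, stood at 118, 101, 46.7 and 65.5, and its difference went from -1.10 to 0.20. DARS, the aspartate enzyme, stood at 34.7, 19.1, 5.86 and 9.86 (-1.55, then -0.50), and WARS at 34.6, 58.1, 24.3 and 16.7 (-1.22, then -0.85). FARSB is described below. The mitochondrial genes among them included IARS2 (27.6, 23.5, 10.8 and 12.9), NARS2 (28.4, 16.9, 7.11 and 11.1) and YARS2 (28.3, 19.4, 9.14 and 12.9). With the trend removed the differences of these 3 were 0.14, 0.18 and -0.68.

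The members spanned much of the range of GC content, from 41.1% (RARS2) to 62.6% (VARS), with a median of 49.5% over cytosolic and 49.9% over mitochondrial members and 51.6% over the 6364 genes. Among the 19 members of lower GC content (41.1% to 49.9%), 13 were lower in HEP than in MES, with a median of -1.14. Among the 19 of higher GC content 2 were lower, GARS and YARS, with a median of -0.16. Across the 38 members the Spearman rho of the difference with GC content was 0.66 as deposited and -0.07 with the trend removed. From HEP to HPC it was -0.65 and -0.06. These are descriptions across genes measured in the same libraries. The rho with transcript length from MES to HEP was 0.04.

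**Figure D2:**
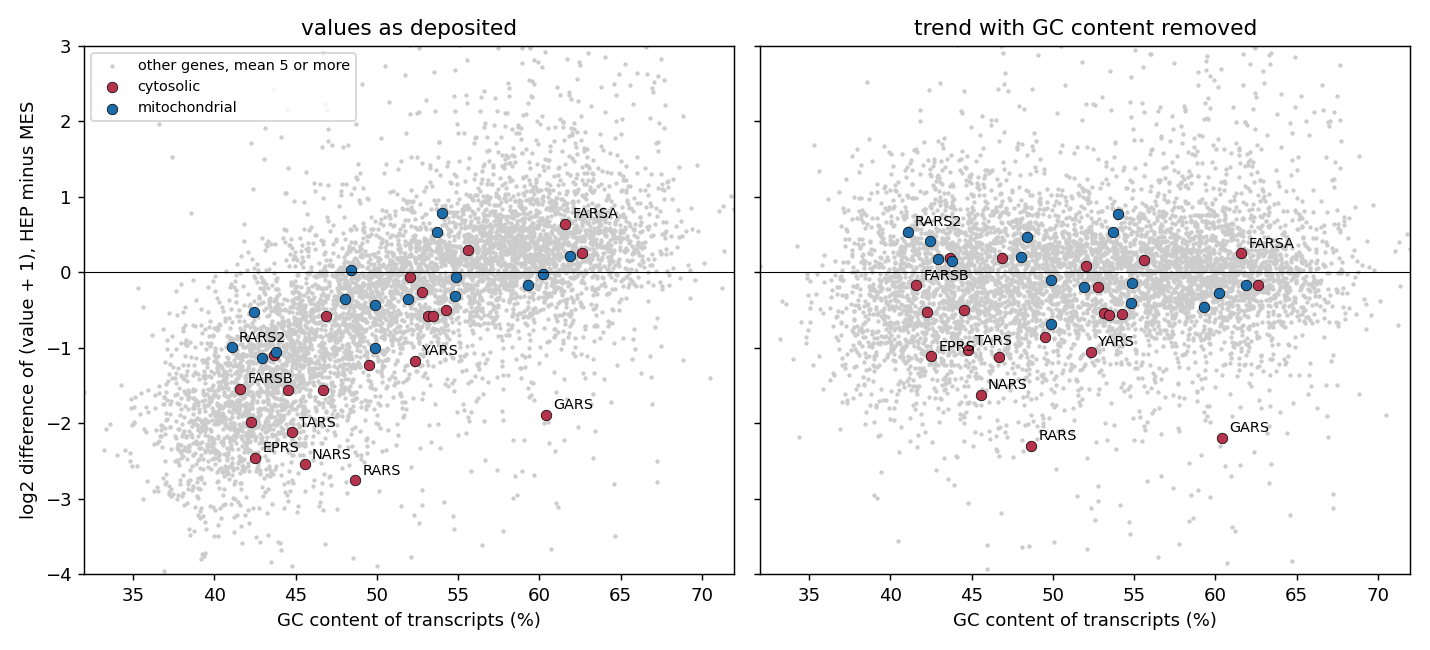
Log2 difference of (value + 1) from MES to HEP against the GC content of each gene's transcripts, as deposited (left) and with the trend removed (right), for 37 of the 38 members (coloured) and other genes whose mean was at least 5 (grey); genes beyond the axis limits are not drawn. RARS (-2.75 and -2.30) and GARS (-1.89 and -2.19) lie far below zero in both panels, while FARSB goes from -1.54 to -0.17.

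The comparison of HPC with HEP covers the last 3 days. Of the 38 members 2 were higher in HPC and 0 lower, while 6.48% of the 8174 genes were higher and 7.71% lower. CARS2, the mitochondrial cysteine enzyme, stood at 15.9 (hESC), 13.7 (MES), 10.5 (HEP) and 22.4 (HPC) (HEP to HPC 1.02), and was the mitochondrial member of highest value in HPC. RARS was the other (8.83 to 19.5, 1.06). With the GC trend removed 0 members passed in either direction, against 5.53% of genes higher and 7.38% lower, with CARS2 at 0.91 and RARS at 0.96. Both therefore lie close to the bound. The median difference was 0.40 over cytosolic and 0.34 over mitochondrial members, and 0.07 over the 8174 genes. With the GC trend removed it was 0.34 over cytosolic and 0.24 over mitochondrial members. Of the 21 cytosolic members 16 stood above their HEP value in HPC. The 5 below it were VARS (41.2 to 24.1), CARS (12.9 to 7.24), WARS (24.3 to 16.7), AARS (41.8 to 29.7) and MARS (68.1 to 52.7).

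Set against hESC, HPC was lower for 17 members and higher for 0, while 34% of the 8174 genes were lower and 10.1% higher. With the GC trend removed 7 were lower, all cytosolic, and 1 higher, against 14.1% and 13% of genes. The 7 were GARS (-1.88), TARS (-1.88), NARS (-1.78), RARS (-1.65), CARS (-1.41), AARS (-1.33) and EPRS (-1.26), and the higher member was CARS2 (1.10). As deposited the median was -1.21 over cytosolic members, -0.36 over mitochondrial members and -0.50 over the 8174 genes. With the trend removed these medians were -0.52, 0.10 and -0.04 (over 8139 genes). Under median-of-ratios scaling (1573 genes lower and 1532 higher, against 2778 and 822) 7 members were lower and 3 higher (CARS2, FARSA and QARS), with medians of -0.65 over cytosolic and 0.19 over mitochondrial members, and with AARS at -0.80 and CARS at -0.98. EPRS, GARS, NARS, RARS and TARS again passed on every scale.

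AARS and CARS differ from the other 5 in their course. AARS, the alanine enzyme, stood at 80.2 (hESC), 59.6 (MES), 41.8 (HEP) and 29.7 (HPC). CARS, the cysteine enzyme of the cytosol, stood at 23.0, 19.8, 12.9 and 7.24. MARS, the methionine enzyme, stood at 109, 103, 68.1 and 52.7. These 3 were lower in each successive library, without the low point in HEP, and their GC content (54.3%, 53.1% and 53.5%) lies where the trend is small. The differences from hESC to HPC were -1.40 for AARS, -1.54 for CARS and -1.03 for MARS as deposited, and -0.90 for MARS with the trend removed, which no longer passed.

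Other cytosolic members followed various courses. SARS, the serine enzyme, was at 80.3, 82.7, 78.9 and 81.2 across the 4 libraries, the narrowest spread among cytosolic members in the plot of values by library. QARS, the glutamine enzyme, stood at 62.8, 56.5, 69.4 and 98.8. FARSA stood at 72.6, 50.4, 79.3 and 103. HPC was the highest library for QARS and FARSA, though neither passed the rule against hESC (0.65 and 0.50). KARS was at 160, 87.9, 58.3 and 86.8 (hESC to HPC -0.87, or -0.07 with the GC trend removed). TARSL2, the lowest cytosolic member, was at 5.78, 3.64, 0.57 and 1.26 (hESC to HPC -1.58, lower by the rule, and -0.96 with the GC trend removed). VARS was at 23.4, 34.5, 41.2 and 24.1, the only cytosolic member highest in HEP.

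**Figure D3:**
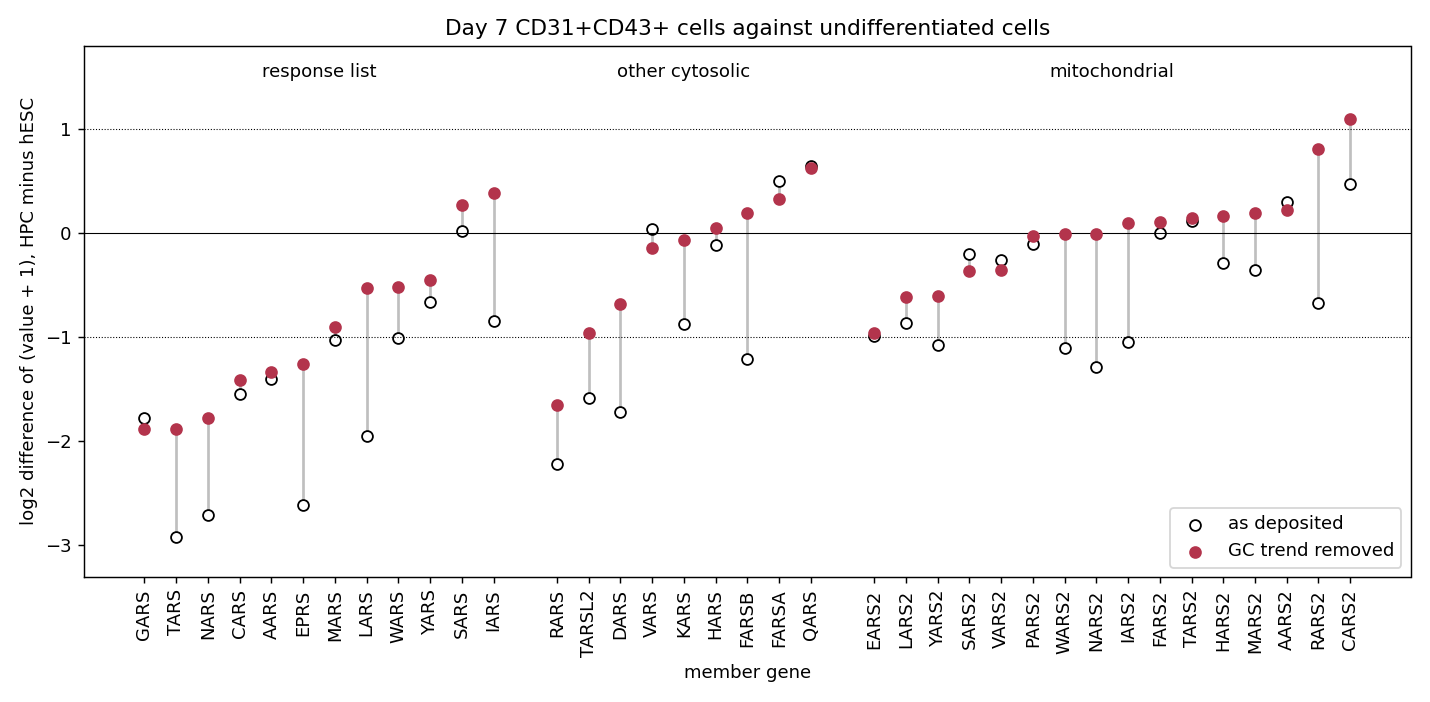
Log2 difference of (value + 1) from hESC to HPC for 37 of the 38 members, as deposited (open) and with the GC trend removed (filled), in 3 groups: synthetases listed as amino acid response targets, other cytosolic members and mitochondrial members. Dotted lines mark a difference of 1 in either direction; the filled points below the lower line are GARS, TARS, NARS, CARS, AARS, EPRS and RARS, and CARS2 alone is above the upper line.

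The 12 cytosolic members listed as targets of the amino acid response (AARS, CARS, EPRS, GARS, IARS, LARS, MARS, NARS, SARS, TARS, WARS and YARS) were set beside the other 9. From hESC to HPC 9 of the 12 were lower, with a median of -1.47, and 4 of the 9 others, with a median of -0.87, beside 34% of all genes tested. Without the GC trend 6 of the 12 were lower (median -1.08), and of the 9 others only RARS (median -0.07), beside 14.1% of genes. SARS and IARS are on the list and stood at 0.27 and 0.39 on that scale, so the listed genes did not move as a block. The list rests on general knowledge and was drawn up with earlier results of these data known, and the difference between the 12 and the 9 has no test.

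Other genes of the amino acid response were read beside them. Of 26 such genes 25 stood at 1 or more in some library (NUPR1 did not), and from hESC to HPC 11 were lower and 2 higher, with a median of -1.34, beside 34% and 10.1% of all genes tested. Without the GC trend 9 were lower and 1 higher, beside 14.1% and 13% of genes, and the median was -0.87. As deposited, ATF5 and DDIT3 stood below 5 in every library and could not pass the rule. ATF4 itself stood at 297 (hESC), 247 (MES), 114 (HEP) and 106 (HPC). ASNS, asparagine synthetase, stood at 23.3, 50.9, 6 and 0.23. PHGDH, the first enzyme of serine synthesis, stood at 176, 159, 69.5 and 9.10, and these last 2 had the largest lower differences (-4.31 and -4.13). The 2 higher genes were TRIB3, a pseudokinase induced by ATF4 (5.51, 8.85, 34.5 and 14.7), and CEBPB, a transcription factor (4.21, 4.55, 5.01 and 9.94). CEBPB was at 0.93 with the GC trend removed. From hESC to MES, ASNS (1.09) and the amino acid transporter SLC7A5 (36.7 to 86.1, 1.21) were higher and 0 genes of the list lower. Of all genes tested 8.18% were higher and 7.99% lower over that step.

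**Figure D4:**
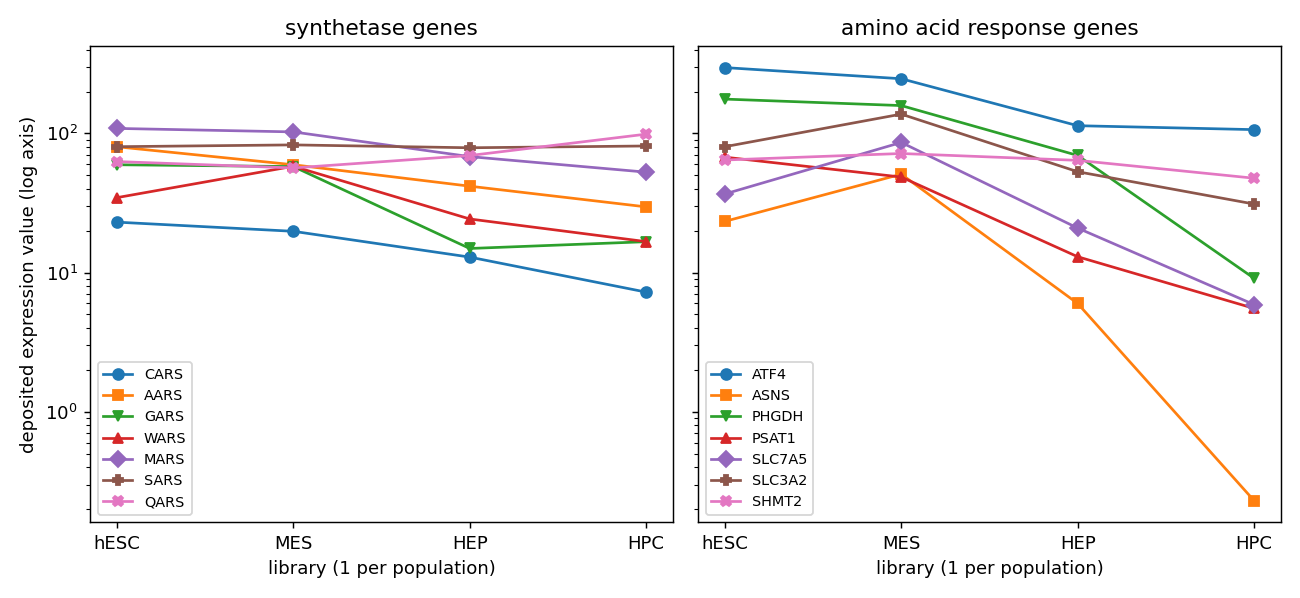
Deposited value (log axis) in the 4 libraries of 7 synthetase genes (left) and 7 amino acid response genes (right), picked for display after their values were seen; lines join the single library of each population. SARS is level near 80.3 while CARS goes from 23.0 to 7.24, and ASNS goes from 50.9 in MES to 0.23 in HPC.

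Promoter sequence was read for the element through which ATF4 acts, written here as TGATGNAA and searched on both strands of the 250 bases before each transcript start (RefSeq, GRCh38.p14). Windows were found for 30 of the 38 members. The letters were present for 3 of 10 listed members with a window (AARS, GARS and IARS), 0 of 6 other cytosolic members and 1 of 14 mitochondrial members (YARS2), and in 3.89% of the 27305 genes with a window. The 4 stretches are shown because they are the matches among members, in the direction of the gene, with the match in capitals. The positions are chr16:70289666-70289713 on the minus strand for AARS, chr9:92293698-92293730 on the minus strand for IARS, chr7:30594835-30594862 on the plus strand for GARS and chr12:32756067-32756114 on the minus strand for YARS2.
AARS: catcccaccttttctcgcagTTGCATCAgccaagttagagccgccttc
IARS: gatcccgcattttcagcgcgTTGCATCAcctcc
GARS: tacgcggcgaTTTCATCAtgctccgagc
YARS2: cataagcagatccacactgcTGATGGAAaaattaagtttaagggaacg

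AARS and IARS carry the same 8 letters, the reverse strand of the element, at 187 and 13 bases before the start. Their differences from hESC to HPC with the GC trend removed were -1.33 and 0.39. The GARS match lies 33 bases before the later of its 2 listed starts. It reaches to or past the earlier start, so it is not wholly upstream of that one. A match is a description of these letters and no sign of binding. The E-box CACGTG, the letters bound by MYC and related factors, was present in the same windows of EARS2, IARS and MARS2, 3 of 30 members, and in 7.73% of genes.

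HARS and HARS2, the cytosolic and mitochondrial histidine enzymes, are divergent neighbours on chromosome 5. Their RefSeq starts lie at 140691370 and 140691455 (GRCh38.p14), and the 84 bases between them precede both genes. The stretch, chr5:140691371-140691454, is shown on the strand of HARS2 because it is the shared upstream sequence of a cytosolic and mitochondrial pair, with CG dinucleotides in capitals (9 of them, at a GC content of 59.5%).
HARS and HARS2: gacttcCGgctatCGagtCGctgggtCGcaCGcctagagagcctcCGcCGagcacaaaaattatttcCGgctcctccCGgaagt

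HARS stood at 33.6 (hESC), 29.2 (MES), 24.2 (HEP) and 31.1 (HPC), and HARS2 at 16.1, 15.3, 11.1 and 13.0. As deposited both were lowest in HEP and highest in hESC. This shared course did not hold with the GC trend removed. Both were then highest in HPC (32.4 and 14.5), with HARS lowest in HEP (25.3) and HARS2 lowest in hESC (12.8). No difference passed the rule on either scale. The ratio of HARS to HARS2 stayed between 1.92 and 2.39 as deposited. The genes are close copies, so the way reads were split between them is uncertain, as it is between TARS and TARSL2.

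Ratios within an amino acid separate enzymes of the same substrate in different compartments. In 14 pairs of a cytosolic and a mitochondrial gene, the cytosolic value was higher in all 14 in hESC, MES and HEP and in 13 in HPC, with a median ratio of 4.14 (hESC), 5.03 (MES), 2.93 (HEP) and 2.30 (HPC). Without the GC trend it was higher in 14, 14, 11 and 12 pairs, with median ratios of 3.97, 5.10, 3.90 and 2.69, the pairs below 1 being those of CARS and NARS in HEP and HPC and of RARS in HEP. As deposited the exception was cysteine: CARS over CARS2 was 1.45 (hESC), 1.44 (MES), 1.23 (HEP) and 0.32 (HPC), and 1.82, 1.68, 0.97 and 0.28 with the GC trend removed. On both scales CARS2 was the higher of the pair in HPC. The ratio of TARS to TARS2 was 18.96, 9.27, 2.15 and 2.21 across the libraries (11.8, 6.79, 3.65 and 2.79 without the GC trend), with TARS2 itself at 10.96, 9.74, 9.30 and 12.0. NARS over NARS2 was 2.90, 2.75, 1.01 and 1.06, and 3.34, 3.17, 0.85 and 0.93 without the GC trend.

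For other amino acids the ratio ran differently. IARS over IARS2, whose GC contents are within 0.15 points of each other, was 4.28, 4.30, 4.34 and 5.09. As deposited both genes were thus lower in HEP than in MES by a like proportion. With the GC trend removed neither was lower over that step (0.20 and 0.14). WARS over WARS2 was 6.32 in hESC and 27.3 in MES (9.25 and 37.3 without the GC trend), with WARS2 at 5.47, 2.13, 1.18 and 2.02 across the libraries. RARS over RARS2 was 6.39, 5.42, 1.59 and 2.18, and 9.94, 7.65, 0.96 and 1.66 without the GC trend. RARS2 stood at 14.8, 12.0, 5.55 and 8.95, with a difference from MES to HEP of -0.99 as deposited and 0.54 without the trend.

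**Figure D5:**
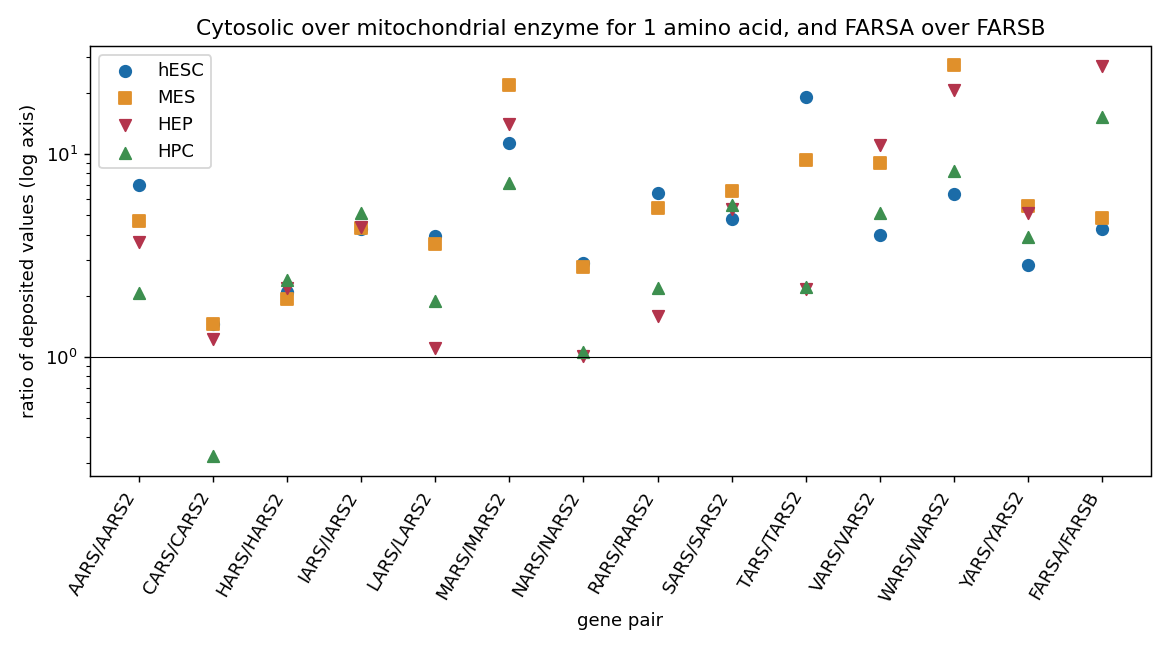
Ratio of the deposited values (log axis) of the cytosolic to the mitochondrial gene for 13 of the 14 pairs, and of FARSA to FARSB, in each library. CARS over CARS2 in HPC (0.32) is the only point below 1, and FARSA over FARSB goes from 4.25 in hESC to 27.2 in HEP.

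The subunits of the cytosolic phenylalanine enzyme were unequal. FARSA stood at 72.6, 50.4, 79.3 and 103 across hESC, MES, HEP and HPC, and FARSB at 17.1, 10.4, 2.92 and 6.81. The ratio of FARSA to FARSB was 4.25, 4.85, 27.2 and 15.1. Their transcripts are 19.99 points apart in GC content (61.6% and 41.6%), and with the trend removed the ratio was 9.33, 8.15, 11.1 and 10.1. FARSB, lower in HEP (-1.54) and in HPC against hESC (-1.21) as deposited, was then at -0.17 and 0.19. FARS2 stood at 12.4, 8.51, 12.8 and 12.4.

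The 8 enzymes of the multisynthetase complex (DARS, EPRS, IARS, KARS, LARS, MARS, QARS and RARS) were read beside the 13 other cytosolic members. From MES to HEP 5 of the 8 were lower, with a median of -1.32, and 6 of the 13, with a median of -1.17, beside 29.9% of all genes tested. Without the GC trend 2 of the 8 were lower, EPRS and RARS (median -0.51), and 4 of the 13 (median -0.56), beside 10.5% of genes. Within the complex the values ran apart, from QARS at 0.29 to RARS at -2.75. Of the 3 scaffolds AIMP1 and EEF1E1 were lower from MES to HEP as deposited. AIMP1 stood at 13.98, 11.6, 0.80 and 2.23, AIMP2 at 65.8, 41.0, 30.1 and 44.2, and EEF1E1 at 91.8, 39.5, 12.2 and 17.5. From MES to HEP AIMP1 was at -2.81 and EEF1E1 at -1.62, and with the trend removed AIMP1 remained lower (-1.48) and EEF1E1 did not (0.08).

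By catalytic fold the members divide into class I (18 genes) and class II (19), with EPRS holding both. From MES to HEP 7 of the 18 and 7 of the 19 were lower, with medians of -0.58 and -0.50, beside 29.9% of all genes tested. With the GC trend removed 2 and 3 were lower, beside 10.5% of genes. The classes thus gave nearly the same counts.

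Of the remaining mitochondrial members, AARS2 stood at 11.45 (hESC), 12.8 (MES), 11.4 (HEP) and 14.4 (HPC). SARS2 stood between 12.6 and 16.8 and HARS2 between 11.1 and 16.1. LARS2 stood at 25.0, 14.8, 11.4 and 13.3 across hESC, MES, HEP and HPC, EARS2, the glutamate enzyme, at 24.5, 16.5, 13.1 and 11.9, and MARS2 at 9.63, 4.71, 4.83 and 7.31. VARS2 was at 5.86, 3.82, 3.74 and 4.74 and PARS2 at 5.11, 1.46, 3.24 and 4.68. No member of this paragraph other than PARS2 (hESC to MES) passed the rule in any comparison.

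Genes that work beside the mitochondrial synthetases were read from a list of 16 translation factors and transfer RNA modifiers. From MES to HEP 6 were lower and 0 higher (median -0.85), beside 29.9% and 7.14% of all genes tested. With the GC trend removed 2 were lower and 0 higher (median -0.08), beside 10.5% and 7.56%. As deposited, MTRF1 and MTFMT stood below 5 in every library and could not pass the rule. MTIF2, an initiation factor, stood at 17.3, 11.7, 0.86 and 2.71 (-2.77, or -1.99 with the trend removed). MTIF3, also an initiation factor, stood at 13.3, 9.20, 1.31 and 3.90 (-2.14, or -0.91). TUFM, the mitochondrial elongation factor that delivers charged transfer RNA, stood at 129, 76.2, 119 and 174. Mitochondria make glutaminyl transfer RNA by amidation, through QRSL1, GATB and GATC. QRSL1 stood at 9.76, 4.96, 1.64 and 3.32, GATB at 8.23, 6.26, 9.50 and 12.5, and GATC at 9.75, 9.18, 5.17 and 8.24.

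The cytosolic elongation factors had a median difference of 0.09 from MES to HEP. Of the 5, 1 was lower and 0 higher, beside 29.9% and 7.14% of all genes tested. EEF1A1, the factor among them that receives the charged transfer RNA, stood at 5231, 3613, 1492 and 4016. It was the lower gene in HEP (-1.28, or -0.71 with the GC trend removed). EEF1B2 stood at 752, 438, 369 and 675, EEF1D at 385, 280, 385 and 294, EEF1G at 1447, 1118, 1365 and 2011, and EEF2 at 888, 722, 770 and 1305. From hESC to HPC none of the 5 passed the rule in either direction, as deposited or without the GC trend, whereas 2 were higher and 0 lower under median-of-ratios scaling. Of 8 genes for transfer RNA editing, end addition and export, 2 were lower from hESC to HPC and 0 higher, or 1 and 0 with the GC trend removed. Of all genes tested 34% were lower and 10.1% higher, or 14.1% and 13% with the trend removed. DTD2, PSTK and SEPSECS stood below 5 in every library and could not pass the rule. The 2 lower genes were XPOT, the exporter of transfer RNA (56.5, 40.7, 6.99 and 10.7; -2.30, or -0.72 with the trend removed), and TRNT1, which adds the CCA end (11.2, 4.21, 0.32 and 1.20; -2.47, or -1.64).

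WARS is also known as a gene induced by interferon, so it was read beside 10 other such genes. Of these, 8 stood at 1 or more in some library, among them PSMB9, which was below 5 throughout and could not pass the rule. From MES to HEP 4 of the 8 were higher and 0 lower (5 and 0 without the GC trend). Of all genes tested 7.14% were higher and 29.9% lower over that step, or 7.56% and 10.5% without the GC trend. ISG15 stood at 20.9 in MES and 397 in HEP, and IFIT1 at 0.20 and 11.9. WARS went the other way over the same step (58.1 to 24.3). From HEP to HPC 4 of the 8 were higher, beside 6.48% of all genes tested. They included IFI6 (1.17 to 17.3), IFIT3 (1.30 to 5.89) and ISG15 (938 in HPC). The 2 lower were TAP1 (12.4 to 0.91) and IRF1 (6.42 to 1.43), beside 7.71% of genes, while WARS reached its lowest value, 16.7. Without the GC trend 3 were higher and 2 lower over that step, beside 5.53% and 7.38% of genes. The 4 genes of the MYC group (MYC, its relatives and their partner MAX), known for their action on growth and translation genes, gave 1 higher (MYCL) and 1 lower (MYCN) from MES to HEP, and 0 higher and 1 lower without the GC trend. MYC stood at 16.6, 15.9, 18.3 and 34.9, MYCN at 26.5, 12.0, 4.93 and 49.6, MYCL at 8.29, 4.61, 11.03 and 6.89, and MAX at 13.4, 18.0, 14.96 and 44.7. From HEP to HPC MYCN (3.09) and MAX (1.52) were higher, and without the GC trend MYC also passed (1.08). The shares of all genes tested over both steps are those given above for the interferon genes.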

How the data were processed

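For each library the authors deposited 1 value a gene, a signal already normalised by them. The submitters' processing notes list RSEM, Bowtie and BWA and the build hg19. Versions, roles, annotation, strand and the measure (FPKM or TPM) are not given in the sources used, so reads of genes that overlap or run antisense may be mixed. Sums differed between libraries (306724 to 426980), depth is unknown, and no interval is given. Of 17634 rows, 4 that shared a name were left out, leaving 17630 genes.

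A pseudocount of 1 was added before log2. Genes counted as higher or lower at 2-fold or more, with 5 or more in the higher library. For each gene the median GC content and length of its coding transcripts came from GENCODE 29, which is on another build and was matched by symbol or RefSeq synonym, for 98.9% of genes and all 38 members. Every listed coding transcript counted alike, short ones included (median length 584 bases for NARS). The GC content and length used may thus differ from those of the transcripts expressed, and so may the trend removed from a single gene. The GC trend was the median log2 deviation of a library from each gene's mean in 50 bins of GC content (genes averaging at least 5), smoothed over 5 bins, and was divided out. Removal also puts libraries on a common median. This procedure was tested on simulated data. Values of 1 mitochondrial member are not reported here, although it is in every count and median. Of the others, those past the rule, the highest and lowest, and both genes of such a pair are given by library; of related lists, the 2 largest differences each way and short lists in full. ATF4, TUFM, QRSL1, GATB and GATC were named with their values seen. Members and lists were chosen with earlier results of these data known. Promoter windows came from RefSeq, matched by current symbol. Python 3.11.15, numpy 2.4.6 and pandas 2.3.3 were used.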

Additional observations from a re-analysis of the deposited data

How the results depend on the processing

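No paired analysis was possible because each group is 1 library, and no replicate could be left out. Median-of-ratios scaling raised values relative to hESC by 0.07 for MES, 0.64 for HEP and 0.62 for HPC (log2). The cause of the changes was not tested. The 3 members lower in MES than in hESC became 1 with a pseudocount of 5, a minimum of 20 or median-of-ratios scaling, and 0 with a common total or the GC trend removed. The 15 lower in HEP than in MES became 8 with median-of-ratios scaling, 8 with a common total and 6 with the GC trend removed, and the 0 higher became 2 with median-of-ratios scaling. The 2 higher in HPC than in HEP became 0 with a pseudocount of 5, a common total or the GC trend removed, and 1 with a minimum of 20. The 17 lower in HPC than in hESC became 10 with a pseudocount of 5, 7 with median-of-ratios scaling, 10 with a common total and 7 with the GC trend removed, and the 0 higher became 3 with median-of-ratios scaling and 1 with the GC trend removed. Shares of all genes also moved with the GC trend removed. They went from 7.99% to 4.64% lower in MES than in hESC and from 29.9% to 10.5% lower in HEP than in MES. For HPC they went from 6.48% to 5.53% higher than in HEP and from 34% to 14.1% lower than in hESC. Shares under the other pseudocounts, the minimums and the common total are not given, so those counts describe members alone. The cytosolic median moved by more than 1.5-fold only with the GC trend removed, to -0.54 from MES to HEP and -0.52 from hESC to HPC. The mitochondrial medians, near 0, changed sign under median-of-ratios scaling (0.18 and 0.19) and, from hESC to HPC, with the GC trend removed (0.10). Of the 37 called differences of single members, all 37 kept their call with a pseudocount of 0.1 or no minimum, 21 with a pseudocount of 5, 26 with a minimum of 20, 18 with either other scaling and 13 with the GC trend removed. The trend's removal reversed 5 of them: IARS (0.20), IARS2 (0.14) and NARS2 (0.18) from MES to HEP, and FARSB (0.19) and IARS2 (0.10) from hESC to HPC.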
